A study of Mus musculus with 2 samples.

Results

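A population of mouse biliary epithelial cells carrying transcripts of Ptgs2, Csf3, Slc34a2, Ces1c, Eya4 and Medag was described across its other genes and across the libraries. Each kept cell was scored by the summed UMIs (unique molecular identifiers, counted transcripts) of these 6 genes divided by all its UMIs. Cells in the top 10% of the score over both libraries with at least 3 of these UMIs were members, called score-positive cells. They numbered 536 of 6220 kept cells, out of 6362 in all. Kept cells had 500 or more detected genes and 1000 or more UMIs, of which no more than 15% were mitochondrial. The score genes chose the cells, so their levels there are a description. The series compares biliary epithelial cells of mouse liver of the genotype labelled Sox9cKO, which its title calls Sox9-deficient, with a control labelled Sox9con. Each genotype is 1 library, and no treatment is named. The driver of the deletion, the deleted part of the gene, the age of the animals and whether animals were pooled are not given in the sources used here. Each library is named by its label for this reason.

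Biliary epithelial cells line the bile ducts, modify bile by secretion and absorption, and can release chemokines and growth factors when the duct is inflamed. Ptgs2 encodes the inducible cyclooxygenase that starts prostaglandin synthesis, and Csf3 encodes granulocyte colony-stimulating factor, a secreted signal for neutrophil production. Slc34a2 encodes a sodium-dependent phosphate cotransporter of epithelial surfaces. Ces1c belongs to a family of closely similar carboxylesterases, so its counts may include reads of copies. Eya4 encodes a transcriptional coactivator with phosphatase activity, and Medag is known from adipocyte differentiation.

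The Sox9cKO library held 2713 kept cells with 14794895 UMIs and the Sox9con library 3507 with 12613570. Median depth per kept cell was 5041 and 3203 UMIs. The libraries shared 0 cell barcodes, and each lay in first-round barcoding wells of its own (5 and 4), so well and library cannot be told apart. Sox9 did not separate the labels. In score-positive cells it stood at 129 and 104 CPM (a gene's UMIs per 1000000 UMIs of the group) for the Sox9cKO and Sox9con labels, and in remaining cells at 118 and 143 CPM. Every difference between libraries describes these 2 libraries without a replicate check. All intervals are 95% intervals and cover counting error only.

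The score-positive cells carried the markers of their label, as did the remaining cells. At least 3 UMIs of 12 biliary markers were found in 443 of 447 score-positive Sox9cKO cells and 85 of 89 Sox9con cells. In remaining cells they were found in 2186 of 2266 and 3323 of 3418. By log2 ratio of score-positive over remaining cells, 8 of the 12 lay below 0 in both libraries and 1 (Spp1) above. The medians were -0.25 and -0.12, and 1 marker, Cftr, was at least 2-fold lower in both. No score-positive cell reached 3 UMIs of neutrophil or lymphocyte markers, and S100a8, S100a9 and Ptprc were at 0 there. Of remaining cells, 0 of 2266 and 0 of 3418 did so for neutrophil and 4 and 2 for lymphocyte markers. S100a9 was at 0 in remaining cells too, so these markers were rare in both classes. Macrophage markers reached 3 UMIs in 5 and 1 score-positive cells, against 30 of 2266 and 11 of 3418 remaining cells. Adgre1, Clec4f, Lyz2, Cd5l and C1qa were at 0 in score-positive cells, and Clec4f and C1qa also in remaining cells. The summed macrophage level was 33.4 against 39.0 CPM in the Sox9cKO and 50.7 against 28.3 CPM in the Sox9con library. Hepatocyte markers reached 3 UMIs in 333 of 447 Sox9cKO and 20 of 89 Sox9con score-positive cells. In remaining cells they did so in 788 of 2266 and 982 of 3418. Fewer cells carried other signs. Of the 10 mesenchymal markers, Col1a1, Col1a2, Col3a1 and Dcn were at least 2-fold higher in score-positive than in remaining cells of both libraries, with log2 ratios of 1.41 to 1.65 and 5.51 to 7.94. Reln had -0.07 and -0.36, and the other 5 had fewer than 50 UMIs. At least 3 UMIs of the list were found in 73 of 447 and 9 of 89 score-positive cells, against 352 of 2266 and 304 of 3418 remaining cells. The summed level was 262 against 248 CPM in the Sox9cKO library and 650.0 against 203 CPM in the Sox9con library, and Lrat was at 0 in the Sox9cKO cells. Reln made up 83.7% and 23.4% of the list's UMIs in score-positive cells, so the fibroblast transcripts were also counted by themselves, a choice made after the values were seen. Col1a1, Col1a2, Col3a1, Dcn and Lum reached 3 UMIs in 3 Sox9cKO and 4 Sox9con cells. Endothelial markers did so in 9 and 3 cells. With fewer than 3 biliary UMIs counted as well, 13 Sox9cKO cells (2.91%) and 6 Sox9con cells (6.74%) bore at least 1 such sign. Hepatocyte markers were not counted as such a sign, here or below. The 4 collagen-bearing Sox9con cells held 81 of the 266 Ptgs2 UMIs of their group (30.5%), and 0 of the 3418 remaining Sox9con cells bore such collagen counts. Beside each result that these cells turn, the value without them is given.

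Score-positive cells made up 447 of 2713 cells of the Sox9cKO library (16.5%, exact binomial interval 15.1 to 17.9). In the Sox9con library they were 89 of 3507 (2.54%, 2.04 to 3.11). Over wells the share ran from 15.2% to 18.6% in the Sox9cKO library and from 1.79% to 3.33% in the Sox9con library, and the wells did not overlap. Depth enters the rule through the 3 UMIs it asks for. With every cell thinned to 2000 UMIs, 233 of 2544 Sox9cKO cells (9.16%, 8.07 to 10.3) and 36 of 2891 Sox9con cells (1.25%, 0.874 to 1.72) were chosen, with 169 and 616 shallower cells left out. The share was higher in the Sox9cKO library at equal depth too. The suffix of the cell barcode gave 8 groups, called sublibraries here, each with cells of both genotypes. Of these, 7 gave 14.9% to 18.9% against 1.52% to 3.48%. The smallest sublibrary held 80 and 96 cells and gave 8.75% (3.59 to 17.2) and 6.25% (2.33 to 13.1), which overlapped within counting error. The share and the level of each score gene per cell are the same counts seen in separate ways, so the difference in shares says no more than that the 6 genes together were more abundant in the Sox9cKO library.

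**Figure D1:**
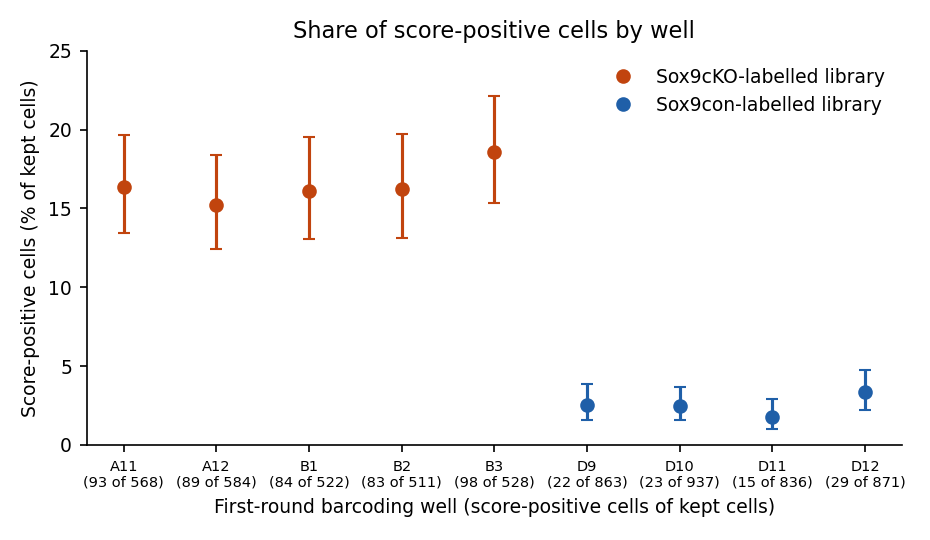
Share of score-positive cells (percent of kept cells, vertical axis) in each first-round barcoding well, with the cells counted under each well. Points are the share and bars the exact 95% binomial interval. The 5 Sox9cKO wells lie between 15.2% and 18.6%, all above the 4 Sox9con wells at 1.79% to 3.33%.

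The cutoff lay at 6.61 score UMIs per 10000 UMIs. The lowest score-positive cell stood at 6.64, and the highest cell with 3 UMIs that was left out stood at 6.61. A further 86 cells above the cutoff had fewer than 3 score UMIs, and 192 cells with at least 3 lay below it. The median score-positive cell held 7 score UMIs in the Sox9cKO and 5 in the Sox9con library, and 55 of the 536 held exactly 3. Score-positive cells were deeper than the remaining cells of their library, with medians of 5759 against 4910 UMIs in the Sox9cKO library and 3781 against 3188 in the Sox9con library. The population is the upper end of a score, and whether it forms a separate cluster was not tested.

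The mix of score genes differed between libraries. Ptgs2 stood at 462 CPM in score-positive Sox9cKO cells and 749 CPM in Sox9con cells. Csf3 stood at 308 and 706 CPM. These were the leading genes of the Sox9con cells, where they made up 43.1% and 40.7% of score UMIs. Ces1c went the other way, with 403 CPM from 1122 UMIs in the Sox9cKO library and 8.44 CPM from 3 UMIs in the Sox9con library. Eya4 stood at 244 and 121 CPM, Slc34a2 at 124 and 76.0 CPM, and Medag at 41.3 and 76.0 CPM. In the remaining cells Ces1c was also unequal, at 34.05 CPM for Sox9cKO against 6.04 CPM for Sox9con, and Eya4 stood at 36.7 and 6.53 CPM there. Medag, at 4.50 and 3.34 CPM, differed least between the remaining cells. Over wells, with all kept cells counted, none of the 6 genes overlapped between libraries: Ptgs2 ran from 83.4 to 124 CPM against 9.06 to 36.8 CPM, and Ces1c from 84.8 to 123 CPM against 4.19 to 9.51 CPM.

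By cell, a Ces1c UMI was seen in 257 of 447 score-positive Sox9cKO cells (57.5%, 52.8 to 62.1), at a median depth of 5759 UMIs. In the Sox9con library it was seen in 3 of 89 (3.37%, 0.701 to 9.54) at 3781 UMIs. Endothelial-marker cells were taken from the remaining cells only, as a background for Ces1c. They gave 1.03% of 97 Sox9cKO cells (0.0261 to 5.61) and 1.53% of 131 Sox9con cells (0.185 to 5.41), at 3033 and 2424 UMIs. The Sox9con share of Ces1c was therefore not distinguishable from that background. A Ptgs2 UMI was seen in 37.6% and 29.2% of score-positive cells, against 5.15% and 0.763% of endothelial-marker cells. A Csf3 UMI was seen in 38.9% and 60.7%, against 6.19% and 2.29%. The rule used these genes and left score-positive cells out of the endothelial-marker group. Higher shares in score-positive cells thus follow in part from the choice. Up to 66 Ptgs2 UMIs lay in a single Sox9cKO cell and up to 42 in a Sox9con cell.

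Few cells held many of the score genes. Only 1 of the 6 was detected in 113 of 447 Sox9cKO cells (25.3%) but in 63 of 89 Sox9con cells (70.8%), with fewer UMIs per cell in the latter. None held all 6, and 17 Sox9cKO cells held 5. The gene with the most UMIs in the cell was Ces1c in 114 Sox9cKO cells, Ptgs2 in 93, Csf3 in 92, Eya4 in 74, Slc34a2 in 26 and Medag in 11, with 37 ties. Among Sox9con cells it was Csf3 in 45, Ptgs2 in 21, Eya4 in 9, Slc34a2 in 6 and Medag in 6, with 2 ties and 0 led by Ces1c. Cells of the Sox9con library were thus mostly Csf3 or Ptgs2 cells, and those of the Sox9cKO library a wider mix.

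To see each gene without its own part in the choice, the rule was run on the other 5. In the Sox9cKO library every score gene was higher in cells chosen by the others. Ptgs2 stood at 253 against 68.1 CPM (log2 ratio 1.89, 1.74 to 2.04) and Slc34a2 at 88.6 against 29.3 CPM (1.60, 1.36 to 1.84). Ces1c had a log2 ratio of 1.55 (1.40 to 1.70), Medag 1.32 (0.84 to 1.78), Csf3 1.15 (0.96 to 1.33) and Eya4 0.87 (0.68 to 1.06). In the Sox9con library Medag (2.12, 0.74 to 3.24), Ptgs2 (2.09, 1.49 to 2.64) and Csf3 (1.998, 1.34 to 2.59) were higher too. The Medag value rested on 7 UMIs in the chosen cells. Of the Medag UMIs in score-positive Sox9con cells, 14.8% lay in the 4 collagen-bearing cells. Without the cells of other signs, Ptgs2 in the Sox9con library came to 0.44. Slc34a2 (1.04, -0.11 to 1.999) was not separated from 0, and Ces1c and Eya4 had 1 UMI each in the chosen cells. In the Sox9cKO library each score gene kept company with the other 5 as a set, while the Sox9con library linked only some of them.

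**Figure D2:**
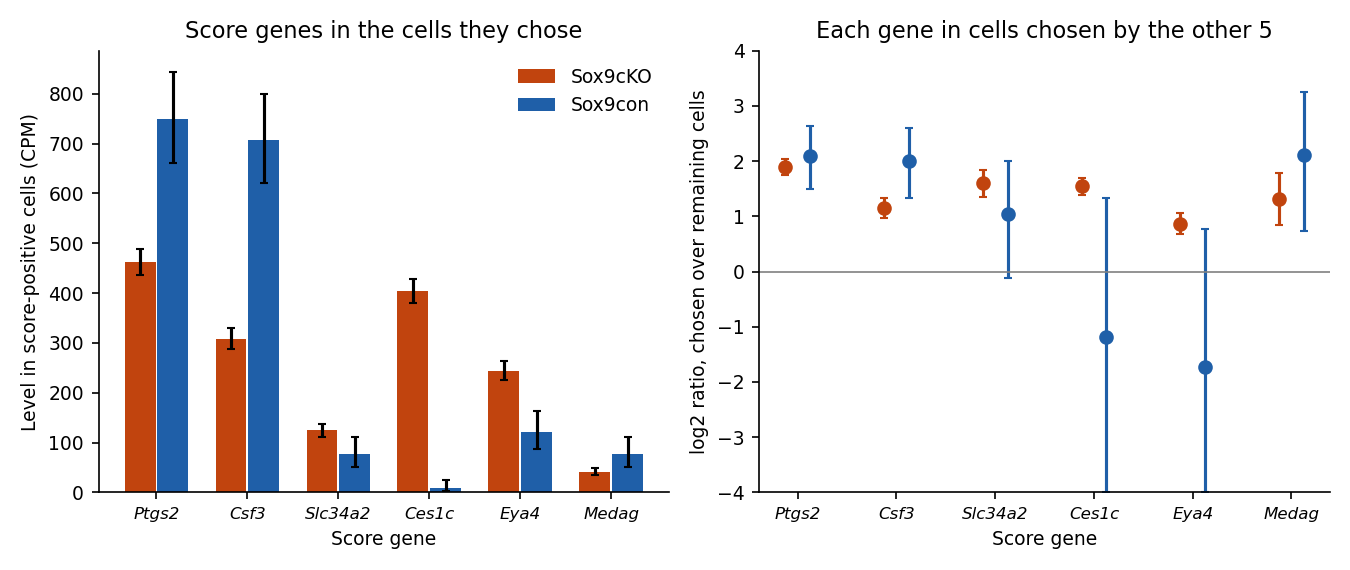
Left, level of each score gene in score-positive cells (CPM, bars) with 95% Poisson counting intervals. Right, log2 ratio of each gene in cells chosen by the other 5 over the remaining cells, with 95% counting intervals, those of Ces1c and Eya4 in the Sox9con library running below the axis limit. Ces1c stands at 403 CPM in the Sox9cKO and 8.44 CPM in the Sox9con library.

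Pairs of score genes in cells thinned to 2000 UMIs were compared next. Ces1c was detected in 26.0% of 177 Sox9cKO cells with Csf3 (19.7 to 33.1) and in 10.9% of those without (9.63 to 12.2). It was detected in 22.5% of 271 cells with Eya4 (17.7 to 28.0) and in 10.6% without (9.41 to 11.99). Ptgs2 was detected in 18.1% of cells with Csf3 (12.7 to 24.6) and in 6.38% without (5.43 to 7.44). Intervals also lay apart for Ces1c with Ptgs2 or Slc34a2 and for Eya4 with Medag. They overlapped for Ptgs2 with Slc34a2, Eya4 or Medag, for Csf3 with those genes, for Slc34a2 with Eya4 and for Ces1c with Medag. For Slc34a2 with Medag they lay apart only when cells were split by Medag. Ptgs2 was detected in 9.23% of Sox9cKO cells with Eya4 (6.06 to 13.3) and in 6.95% without (5.94 to 8.08). In the Sox9con library, 0 of 93 cells with Csf3 held Ces1c, which allows a share of up to 3.89% by the exact binomial interval, and 0 held Eya4. Ptgs2 was detected in 4 of 93 Sox9con cells with Csf3 (4.30%, 1.18 to 10.6) and in 1.68% without (1.24 to 2.23), which overlapped. Detection of a pair in the same cell at this depth was too rare in the Sox9con library to tell pairs apart.

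Outside the score genes, 30 of 9542 tested genes (0.314%) were at least 2-fold higher in score-positive than in remaining cells of both libraries. A further 109 (1.14%) were at least 2-fold lower in both. A tested gene had at least 200 UMIs over all kept cells. The median tested gene had a log2 ratio of -0.01 in the Sox9cKO and -0.02 in the Sox9con library. Counted in each library by itself, 112 genes (1.17%) were higher and 306 (3.21%) lower in the Sox9cKO library, and 302 (3.16%) higher and 806 (8.45%) lower in the Sox9con library. Of the 30 and the 109, 25 and 58 had counting intervals on 1 side of 0 in both libraries. With Csf3 left out of the score, 11 of the 30 and 44 of the 109 were called again. The 89 Sox9con cells held 355365 UMIs, against 2782847 in the Sox9cKO cells, so a gene with 200 UMIs in the remaining Sox9con cells would be counted 5.80 times in them at an equal level.

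**Figure D3:**
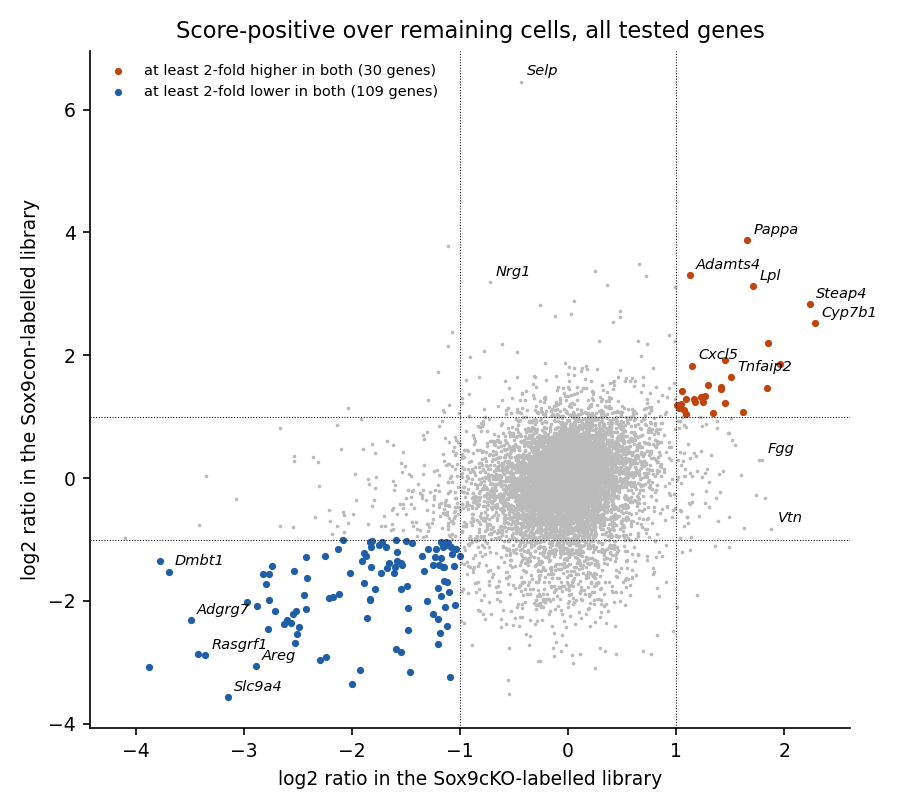
Log2 ratio of score-positive over remaining cells for each tested gene, in the Sox9cKO library (horizontal axis) and the Sox9con library (vertical axis). Dotted lines mark 2-fold. The 30 coloured genes at the upper right and the 109 at the lower left are past 2-fold in both libraries, and most genes lie near 0.

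Cyp7b1, an oxysterol hydroxylase of bile acid synthesis, stood at 91.3 against 18.7 CPM in the Sox9cKO library and at 33.8 against 5.87 CPM in the Sox9con library. Its log2 ratios were 2.28 (2.02 to 2.55) and 2.52 (1.51 to 3.42), and it was higher in 5 of 5 and 4 of 4 wells. It was seen in 93 of 447 and 5 of 89 cells, so most score-positive cells showed none. Steap4, a metalloreductase of cell membranes, stood at 52.8 against 11.2 CPM and at 39.4 against 5.55 CPM (2.23, 1.89 to 2.58; 2.83, 1.88 to 3.67). Lpl, lipoprotein lipase, had ratios of 1.71 (1.36 to 2.06) and 3.13 (2.36 to 3.83). The Sox9con value of Lpl rested on 21 UMIs, 42.9% of them in 1 cell, and came to -0.16 without the cells of other signs. Pappa, a protease that cleaves insulin-like growth factor binding proteins, had ratios of 1.65 (1.21 to 2.09) and 3.87 (2.96 to 4.73), the latter from 17 UMIs in 4 cells. With all cells of endothelial, mesenchymal or immune marker counts left out it came to -0.10 in the Sox9con library.

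Several of the 30 are on the list of chemokines and cytokines. Cxcl1 stood at 1499 against 593 CPM in the Sox9cKO library and at 2023 against 975 CPM in the Sox9con library (log2 ratios 1.34 and 1.05). Cxcl2 stood at 1695 against 758 CPM and at 2088 against 852 CPM (1.16 and 1.29). Cxcl5 stood at 682 against 308 CPM and at 1418 against 399 CPM (1.15 and 1.83). These 3 and Cxcl3 (1.06 and 1.42) encode attractants of neutrophils. Csf1, the growth factor of macrophages, stood at 330.2 against 141 CPM and at 360.2 against 144 CPM (1.23, 1.12 to 1.35; 1.32, 1.05 to 1.58). Lif, leukaemia inhibitory factor, had ratios of 1.17 and 1.24. Ltb, a membrane-bound lymphotoxin subunit, had ratios of 1.84 (1.62 to 2.07) and 1.47 (0.49 to 2.32), and in the Sox9con library it depended on Csf3 in the score, with a value of -1.41 without it. All of these encode secreted or surface signals, as does Csf3, which the rule used.

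The gene lists used a lower minimum of 50 UMIs, so their counts are read against all 12970 genes outside the score with that many. Of these, 0.532% were at least 2-fold higher in both libraries and 1.09% at least 2-fold lower, and 24.6% lay above 0 in both and 26.9% below. A list of 20 genes at these shares holds less than 1 call, so a list with 0 calls is not set apart from other genes by its count. The median of the 12970 genes was -0.03 in the Sox9cKO and 0.00 in the Sox9con library.

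Of the 22 measured chemokines and cytokines, 5 were at least 2-fold higher in both libraries, 0 were lower, 14 lay above 0 in both and 1 below. The list's median log2 ratio was 0.44 in the Sox9cKO and 0.96 in the Sox9con library, and the latter came to 0.41 without the cells of other signs. Of the list, Ccl7 had the highest mean ratio and Il1a the lowest. Ccl7, a monocyte attractant, stood at 3.6 against 2.4 CPM in the Sox9cKO library and at 25.3 against 0.2 CPM in the Sox9con library. Il1a stood at 11.5 against 14.4 CPM and at 2.8 against 9.9 CPM.

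Of 21 measured NF-kappaB components and targets, 2 were at least 2-fold higher in both, 0 were lower and 13 lay above 0 in both, with medians of 0.25 and 0.40. Tnfaip2, a gene induced by tumour necrosis factor, stood at 2134 against 751 CPM and at 1528 against 487 CPM (1.51, 1.46 to 1.55; 1.65, 1.52 to 1.78). It was seen in 398 of 447 and 68 of 89 score-positive cells, the widest reach among the named higher genes. Lcn2, a siderophore-binding secreted protein, stood at 790.2 against 296 CPM and at 507 against 181 CPM (1.42, 1.34 to 1.49; 1.48, 1.26 to 1.70). Among the subunit genes Nfkb1 had ratios of 0.30 and 0.61, Relb 0.28 and 0.51, and Rela 0.11 and -0.02. Nfkbiz, with the lowest mean ratio of the genes with values in both libraries, had 0.09 and -0.12.

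The higher genes included 5 whose promoters held GGGANTTTC, a part of the NF-kappaB element. RefSeq's promoter table (GRCm38.p6) held 17 of the 30 genes, and 250 bases before the start were searched on both strands for motifs chosen after the genes' values were known. GGGANTTTC was found in the promoters of Csf1, Cxcl1, Cxcl2, Cxcl3 and Ltb and in 0.941% of all 32851 promoters. The looser GGGNNTTTC, which every such match also fits, was found in these 5 and in Steap4 (3.72% of all). TGACGTCA was found in 0 of the 17 (1.55% of all), its part ACGTCA in Cxcl1 (6.47%) and CACGTG in Cxcl3 (6.02%). Cxcl1, Cxcl2 and Cxcl3 neighbour each other on chromosome 5 and are related in sequence, so they are not separate cases. The 160 bases before the start are shown 5′ to 3′ on the strand of the gene, with the match in capitals, since these genes were higher in both libraries and share the match. Cxcl1 lies at chr5:90891085-90891244, Cxcl2 at chr5:90903739-90903898 and Cxcl3 at chr5:90785941-90786100, all on the plus strand. Csf1 lies at chr3:107760470-107760629 on the minus strand and Ltb at chr17:35194347-35194506 on the plus strand. In Csf1 and Ltb the match reads on the other strand.
Cxcl1: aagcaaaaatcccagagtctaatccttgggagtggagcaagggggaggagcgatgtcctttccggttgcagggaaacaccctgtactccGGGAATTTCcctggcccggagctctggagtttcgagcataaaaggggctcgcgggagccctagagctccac
Cxcl2: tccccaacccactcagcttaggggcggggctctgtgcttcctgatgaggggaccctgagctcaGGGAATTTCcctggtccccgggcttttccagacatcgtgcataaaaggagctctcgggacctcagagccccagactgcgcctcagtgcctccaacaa
Cxcl3: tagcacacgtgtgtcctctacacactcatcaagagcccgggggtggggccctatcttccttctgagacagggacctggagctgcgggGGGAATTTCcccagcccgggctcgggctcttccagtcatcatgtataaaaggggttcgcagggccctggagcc
Csf1: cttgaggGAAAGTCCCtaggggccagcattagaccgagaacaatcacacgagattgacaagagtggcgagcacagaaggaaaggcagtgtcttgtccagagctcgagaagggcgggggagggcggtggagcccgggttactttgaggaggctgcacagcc
Ltb: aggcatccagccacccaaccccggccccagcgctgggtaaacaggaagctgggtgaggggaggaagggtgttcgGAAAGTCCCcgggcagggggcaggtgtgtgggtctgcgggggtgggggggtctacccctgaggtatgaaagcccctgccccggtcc

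Among the 5 score genes with an entry, none held GGGANTTTC, and Medag held CACGTG. Ptgs2 and Slc34a2 both held TTGCGCAA, a palindromic C/EBP-type element found in 0.164% of all promoters and in 0 of the 17 higher genes. They are shown because both are defining genes of the population. Ptgs2 lies at chr1:150099871-150100030 and Slc34a2 at chr5:53049193-53049352, both on the plus strand, with the match in capitals 69 and 48 bases before the start. A match describes letters and not binding.
Ptgs2: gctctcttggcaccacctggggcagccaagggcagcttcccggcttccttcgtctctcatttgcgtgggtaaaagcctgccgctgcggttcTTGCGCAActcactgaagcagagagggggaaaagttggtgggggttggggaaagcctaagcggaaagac
Slc34a2: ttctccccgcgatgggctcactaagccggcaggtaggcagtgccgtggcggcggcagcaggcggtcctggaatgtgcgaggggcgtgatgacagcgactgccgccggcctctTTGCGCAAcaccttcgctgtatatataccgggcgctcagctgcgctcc

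The other named higher genes had smaller counts. Gbp4, an interferon-induced guanylate-binding protein, stood at 25.5 against 6.58 CPM and at 33.8 against 9.30 CPM (1.96, 1.47 to 2.44; 1.86, 0.87 to 2.72). Rgs16, a regulator of G-protein signalling, stood at 32.0 against 8.91 CPM in the Sox9cKO library (1.84, 1.42 to 2.26) and had 2 UMIs in the Sox9con cells. Adm, the vasodilator peptide adrenomedullin, had ratios of 1.45 (0.89 to 1.99) and 1.92 (0.74 to 2.92). Kctd1, a BTB-domain protein, had 1.29 (0.94 to 1.64) and 1.52 (0.84 to 2.14). Fut9, a fucosyltransferase, had 1.41 (1.05 to 1.77) and 1.45 (-0.05 to 2.63), with 5 of its 6 Sox9con UMIs (83.3%) in 1 cell. Gria3, a glutamate receptor subunit, had 1.25 (0.79 to 1.69) in the Sox9cKO library and 3 UMIs in the Sox9con cells. Rgs6 had 1.27 (0.86 to 1.67) and 1.34 (-0.33 to 2.64), but 67.9% of its Sox9cKO UMIs lay in 1 cell, and it came to -3.27 when Eya4 was left out of the score. For Rgs6, Gria3, Fut9 and Rgs16 the Sox9con library adds little.

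The remaining called genes were named after their values were seen. They were Gm16685, Rasal1, Adamts4, Camkk2, Micall2, Cfb, Cyria, Sh3pxd2a, H6pd and Igfbp4. Rasal1, which limits Ras signalling, stood at 239 against 87.4 CPM and at 144 against 61.7 CPM (1.45 and 1.22). Cfb, complement factor B, stood at 196 against 95.9 CPM and at 67.5 against 29.8 CPM (1.03 and 1.18). Adamts4, a matrix protease, had 1.12 and 3.30, and 75.3% of its Sox9con UMIs lay in 1 cell. Without the cells of other signs it came to 3.39 in the Sox9cKO and 2.10 in the Sox9con library.

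Slc9a4, a sodium-proton exchanger, stood at 3.23 against 28.7 CPM in the Sox9cKO library and at 2.81 against 33.3 CPM in the Sox9con library (-3.15, -4.29 to -2.21; -3.56, -8.87 to -1.08). Areg, an EGF receptor ligand, stood at 3.23 against 24.0 CPM and at 2.81 against 23.5 CPM (-2.89, -4.03 to -1.95; -3.06, -8.37 to -0.57). Rasgrf1, a Ras exchange factor, stood at 4.31 against 44.1 CPM and at 5.63 against 41.6 CPM (-3.35 and -2.89). Adgrg7, an adhesion G-protein-coupled receptor, had the most counts of these 4 lower genes, at 6.47 against 72.6 CPM and at 25.3 against 125 CPM (-3.49, -4.25 to -2.82; -2.31, -3.44 to -1.38). None of the 4 was higher in score-positive than in remaining cells of any Sox9cKO well.

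The other named lower genes were Cela1, Ptprr, Ly6m, Rhof, Cfap53, Capn13, Ctse, Trpm3, Spink4, Ehd3 and Tm4sf20. Their log2 ratios ran from -3.42 (Cela1, a pancreatic-type elastase) to -2.24 (Ehd3) in the Sox9cKO library and from -2.96 (Spink4, a protease inhibitor of mucosal secretions) to -2.21 (Tm4sf20) in the Sox9con library. Each rested on 1 to 3 UMIs in the Sox9con cells, and the counting intervals of Rhof, Cfap53, Ctse and Tm4sf20 reached past 0 there. Ctse, cathepsin E, was lower on 22 UMIs in 21 Sox9cKO cells, 7.91 against 46.8 CPM (-2.57, -3.25 to -1.95). Ehd3 came to 0.08 in the Sox9cKO library without the cells of other signs. The remaining cells of that library held endothelial markers in 5.38% of cells, against 2.01% of score-positive cells.

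Mucins and trefoil factors form the mucus layer of epithelial surfaces. Of 16 measured mucins, trefoil factors and defence genes, 3 were at least 2-fold lower in both libraries, 1 (Lcn2) was higher and 9 lay below 0 in both, with medians of -0.71 and -0.76. Dmbt1, a mucosal scavenger protein, stood at 220.3 against 2854 CPM in the Sox9cKO library (-3.70, -3.81 to -3.58) and at 1066 against 3066 CPM in the Sox9con library (-1.52, -1.67 to -1.38). It was thus lower in both, with counting intervals that do not overlap. Its level in score-positive cells did overlap between wells, at 144 to 299 CPM in the Sox9cKO and 143 to 1842 CPM in the Sox9con library. Muc4, a membrane mucin, stood at 51.4 against 155 CPM and at 14.1 against 96.7 CPM (-1.59 and -2.78). Slpi, a secreted protease inhibitor, stood at 9.3 against 19.9 CPM and at 2.8 against 26.7 CPM. Muc1 was near level, at 0.23 in both.

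Of 15 measured prostaglandin genes other than Ptgs2, 0 were 2-fold higher or lower in both, with medians of -0.10 and 0.07. Ptgs1, the constitutive cyclooxygenase, stood at 20.8 against 38.4 CPM and at 31.0 against 36.8 CPM. Abcc4, which exports prostaglandins, stood at 485 against 279 CPM and at 172 against 119.8 CPM, with ratios of 0.80 and 0.52. Hpgds and Ptger3 had the highest and lowest mean ratios, both from few UMIs. Slco2a1, the prostaglandin uptake carrier, had ratios of -0.10 and -0.60. Ptges2, a prostaglandin E synthase, had 1.49 in the Sox9cKO and -0.63 in the Sox9con library, the latter from 2 UMIs.

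Of 11 measured phosphate and solute transport genes, 0 were called in either direction, with medians of -0.13 and 0.04. The phosphate carriers Slc20a1 and Slc20a2 had ratios of -0.16 and -0.08 in the Sox9cKO library and 0.07 and 0.23 in the Sox9con library. Slc5a1, the sodium-glucose cotransporter, stood at 209 against 102 CPM and at 250.4 against 131 CPM (1.04 and 0.94), while Slc26a3 had the lowest mean ratio. Of 6 measured carboxylesterases 0 were called, with medians of -0.11 and -0.34. Ces1d stood at 80.5 against 36.3 CPM in the Sox9cKO library (1.15) and at 73.2 against 87.4 CPM in the Sox9con library (-0.26). Reads shared between Ces1c and Ces1d cannot be told apart here. Of 5 measured genes of the Eya family and its partners 0 were called, and Eya2 stood at 16.2 against 55.9 CPM in the Sox9cKO library (-1.79) and at 36.6 against 41.0 CPM in the Sox9con library. Of 7 measured genes of the adipogenesis list around Medag, 1 (Lpl) was higher and 1 (Fabp4) lower in both. Pparg, the adipogenic nuclear receptor, had ratios of -1.40 and -0.94, and Cebpa had 0.81 and 0.79.

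Immediate early genes, which respond to cell handling as well as to growth signals, lay mostly below 0. Of 22 measured, 0 were called, 2 lay above 0 and 13 below 0 in both, with medians of -0.35 and -0.28. Fos, with the lowest mean ratio, stood at 238 against 397 CPM and at 124 against 355 CPM. Nr4a2, with the highest, stood at 15.5 against 18.5 CPM in the Sox9cKO library and at 78.8 against 11.2 CPM in the Sox9con library. Ier3 was 0.85 and 0.80.

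Of 19 measured biliary identity factors 0 were called, with medians of -0.03 and -0.15. Foxa1 had the highest mean ratio, at 112 against 64.1 CPM and 124 against 73.0 CPM (0.81 and 0.76), and Pdx1 the lowest, at 4.0 against 20.3 CPM and 25.3 against 20.0 CPM. Prox1, a transcription factor of liver development, had 0.67 and 0.52. Sox9 had ratios of 0.13 (-0.04 to 0.30) and -0.46 (-0.97 to 0.01). Krt7, a duct keratin, was lower, at 123 against 228 CPM and 208 against 284 CPM (-0.89, -1.06 to -0.73; -0.45, -0.80 to -0.12). Spp1, osteopontin, stood at 3269 against 1766 CPM in the Sox9cKO library (0.89, 0.85 to 0.92) and at 4398 against 3988 CPM in the Sox9con library (0.14, 0.07 to 0.21). Of 16 measured bile secretion genes 1, the chloride channel gene Cftr, was at least 2-fold lower in both (-1.18 and -1.04), 0 were higher and 8 lay below 0 in both. Vipr1 had the highest mean ratio of that list and Slc10a2, the bile acid uptake carrier, the lowest (-0.83 and -1.80).

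Of 9 measured EGF family genes only Areg was called, and the receptor gene Erbb4 had the highest mean ratio of the 9 (0.66 and -0.01). Nrg1 is on the same list but was not among the 9 genes counted, because several identifiers carry its symbol. Its ratios were -0.73 and 3.19, with a higher mean (1.23), and 77.4% of its UMIs in Sox9con score-positive cells lay in 1 cell. Of 14 YAP and TEAD targets, 18 TGF-beta and activin genes and 14 Notch genes, 0 were called in either direction. Their medians were -0.44 and -0.18, -0.19 and -0.03, and 0.04 and 0.10. Inhba, the activin A subunit gene, stood at 416 against 289 CPM in the Sox9cKO library (0.53, 0.43 to 0.62) and at 73.2 against 73.5 CPM in the Sox9con library (-0.01, -0.63 to 0.55). Of 9 measured proliferation genes 1, Mcm5, was higher in both, on 15 UMIs in the Sox9cKO cells, and Mki67 was lowest.

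**Figure D4:**
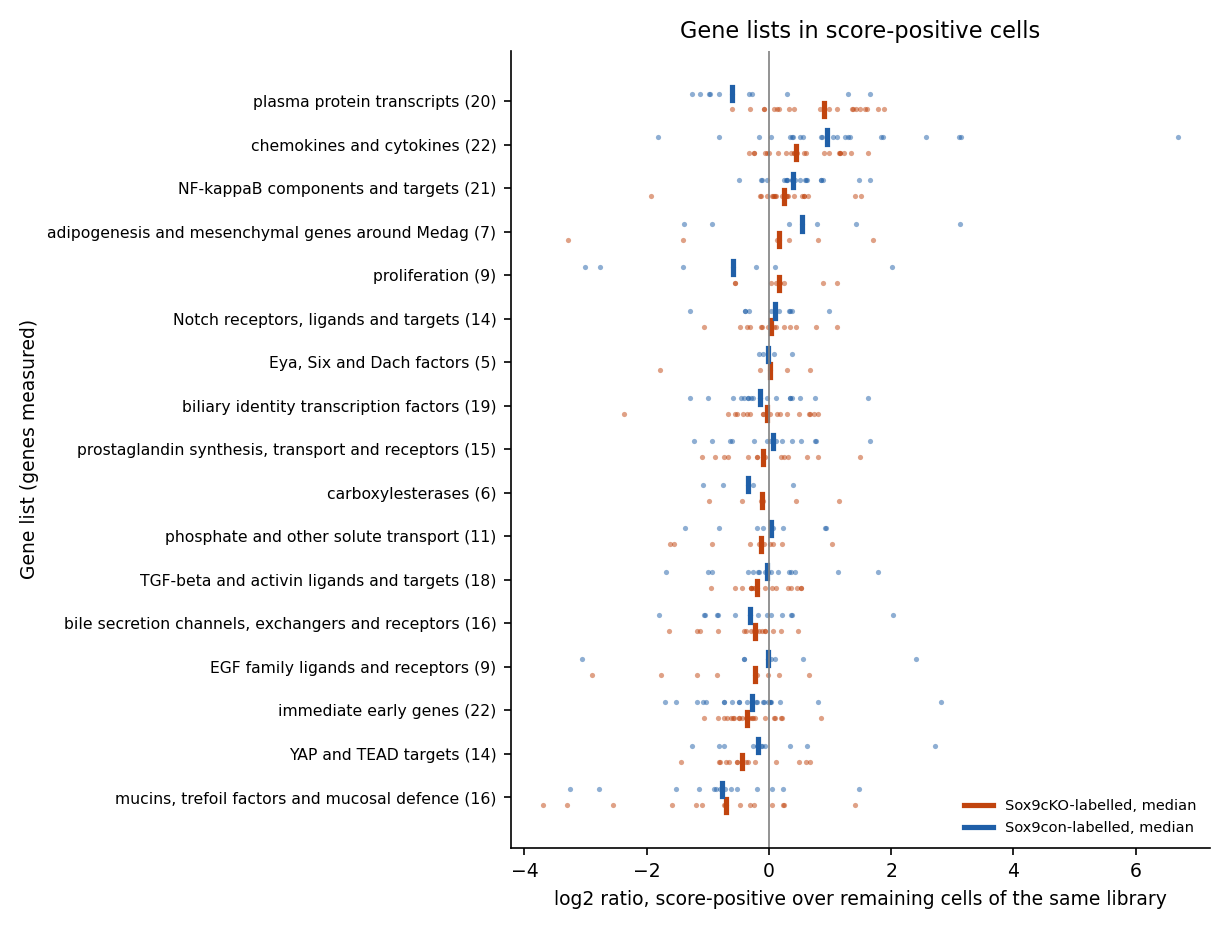
Log2 ratio of score-positive over remaining cells for the measured genes of each list (points) with the list median (bars), by library, ordered by the Sox9cKO median. Plasma protein transcripts have medians of 0.91 in the Sox9cKO and -0.60 in the Sox9con library, and mucins and mucosal defence genes have -0.71 and -0.76.

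Of 20 measured plasma protein transcripts, 0 were called in both, and the median was 0.91 in the Sox9cKO and -0.60 in the Sox9con library, where 9 of the 20 lacked a ratio in at least 1 library for want of counts. Alb, albumin, stood at 1142 against 444 CPM in the Sox9cKO library (1.36) and at 284 against 357 CPM in the Sox9con library (-0.33). Vtn, vitronectin, stood at 511 against 139 CPM (1.88, 1.78 to 1.98) and at 5.63 against 9.95 CPM from 2 UMIs in 1 cell. Fgg, a fibrinogen chain, stood at 148 against 42.8 CPM (1.79, 1.60 to 1.98) and had 2 UMIs in the Sox9con cells. At least 3 UMIs of hepatocyte markers were seen in 74.5% of score-positive and 34.8% of remaining Sox9cKO cells, and in 22.5% and 28.7% of Sox9con cells. Their summed level was 1411 against 608 CPM and 391 against 566 CPM, and the part of RNA from hepatocytes in the result was not tested. Vtn was spread over 308 of the 447 Sox9cKO cells, with 1.27% of its UMIs in the highest cell.

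Between libraries within score-positive cells, 264 of 5064 tested genes (5.21%) were at least 2-fold higher in the Sox9cKO library and 137 (2.71%) at least 2-fold lower. A gene was tested with at least 100 UMIs over all score-positive cells. Of these 401 genes, 93 (23.2%) were at least 2-fold apart the same way in the remaining cells. The lower count came to 88 without well A12 and 246 without well D9, so it rests on single wells. The cells compared differ in their leading score gene, as given above.

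The highest were Vtn, Gc, Fgg, Rbp4, Hp, Pcsk6, Fga, Serpina1c, Itih2 and Cd36. Of these 10, 8 encode plasma proteins, Pcsk6 a proprotein convertase and Cd36 a fatty acid receptor. Vtn had 1421 UMIs in Sox9cKO and 2 in Sox9con score-positive cells (log2 ratio 6.50, 4.65 to 9.55), against 3.802 (3.54 to 4.08) in the remaining cells. Gc, the vitamin D binding protein, had 5.38 (3.52 to 8.42) against 4.26 (4.01 to 4.52), which overlapped. Itih2 had 3.96 (2.91 to 5.28) against 2.13 (1.97 to 2.30). Cd36 had 363 UMIs and 0, or at least 15.5-fold higher against the floor of 3 counts in the group, and its remaining cells had 2.92 (2.60 to 3.26). Fga and Serpina1c were also at 0 in the Sox9con cells, at least 17.0-fold and 15.8-fold higher. Pcsk6 had 4.23 (1.73 to 9.54) against 0.78 (0.52 to 1.05). All 10 were thus also higher in the remaining Sox9cKO cells. By their counting intervals Vtn, Pcsk6 and Itih2 were further apart in score-positive cells, and against the floor so were Cd36 (lower limit 3.64) and, by a narrow margin, Serpina1c (lower limit 3.68 against 2.95 to 3.64 in the remaining cells). Pcsk6 rested on 1 Sox9con UMI and came to 2.497 without the cells of other signs. Itih2 rested on 7 Sox9con UMIs and came to 5.04 there.

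The lowest were Selp, Rhoj, Ly6a, Tmtc2, Adamts4, Efna5, Serpinb1a, Nrg1, Dmbt1 and Cd46. The value of Selp, an endothelial adhesion gene, was -5.60, with all 173 Sox9con UMIs in 1 cell. Nrg1 (-2.30) had 77.4% of its Sox9con UMIs in 1 cell, and Adamts4 (-2.52) 75.3%. Without the cells of other signs Nrg1 came to 0.65 and Adamts4 to 1.02, both turned, and Tmtc2 came from -2.80 to -0.90. Rhoj stood at 23.0 CPM in Sox9cKO and 250.4 CPM in Sox9con score-positive cells (-3.44, -3.93 to -2.97), against -1.78 (-1.92 to -1.65) in the remaining cells. Ly6a, a surface protein anchored by lipid, stood at 25.5 and 205 CPM (-3.01, -3.50 to -2.52), against -1.74 (-1.89 to -1.59). Efna5, an ephrin, had -2.38 (-2.80 to -1.96) against -0.42 (-0.52 to -0.33), and Serpinb1a, a protease inhibitor, -2.37 (-2.89 to -1.83) against -0.90 (-0.99 to -0.81). Cd46, a complement regulator, had -2.14 (-2.75 to -1.51) against -0.99 (-1.24 to -0.75). Dmbt1 had -2.28 (-2.46 to -2.09) against -0.10 (-0.12 to -0.08). Its wells overlapped between libraries, at 144 to 299 CPM in Sox9cKO and 143 to 1842 CPM in Sox9con score-positive cells. Of its Sox9con UMIs there, 20.8% lay in 1 cell. Rhoj, Ly6a, Efna5, Serpinb1a, Cd46 and Dmbt1 were further apart in score-positive than in remaining cells by their counting intervals.

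Split by the score gene that led in the cell, some genes were shared and some were not. Cyp7b1 was higher in all 6 Sox9cKO groups, with log2 ratios from 1.53 (Eya4-led) to 2.76 (Csf3-led), and in the Csf3-led and Ptgs2-led groups of the Sox9con library (2.30 and 2.92). Tnfaip2 was higher in the same groups, from 0.78 in Eya4-led Sox9cKO cells to 2.21 in Csf3-led Sox9con cells. Cxcl2 and Cxcl5 had their highest ratios in the Csf3-led cells of each library. Cxcl2 had 1.64 (1.56 to 1.72) in 92 Csf3-led and 0.15 (-0.01 to 0.30) in 74 Eya4-led Sox9cKO cells, and 1.92 (1.79 to 2.04) in 45 Csf3-led and 0.16 (-0.16 to 0.47) in 21 Ptgs2-led Sox9con cells. Cxcl5 had 1.67 (1.54 to 1.80), -0.03 (-0.29 to 0.23), 2.47 (2.31 to 2.62) and 1.34 (1.02 to 1.64) in the same groups. Eya4-led Sox9cKO cells were thus nearest to the remaining cells in these chemokines.

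Pappa went the other way. It had 28 UMIs in Ptgs2-led Sox9cKO cells (2.34, 1.68 to 2.95), 29 in Ces1c-led cells (2.16, 1.52 to 2.77) and 1 in Csf3-led cells. Within the Sox9cKO library Rgs16 had its highest ratio in Ptgs2-led cells (2.70, 2.11 to 3.26), which overlapped that of Ces1c-led cells (1.77, 1.03 to 2.44). Steap4 had ratios there of 3.16 (2.31 to 3.91) in Slc34a2-led, 3.67 (2.42 to 4.68) in Medag-led and 2.52 (1.97 to 3.04) in Ptgs2-led cells, which overlapped. In Ptgs2-led Sox9con cells Steap4 had 4.17 (2.98 to 5.18) from 9 UMIs. Inhba had 1.05 (0.89 to 1.20) in Ptgs2-led and 0.03 (-0.24 to 0.28) in Eya4-led Sox9cKO cells. Krt7 was lower in Csf3-led (-1.24), Ces1c-led (-1.18) and Ptgs2-led (-1.14) Sox9cKO cells, and -0.36 (-0.71 to -0.03) in Eya4-led ones.

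**Figure D5:**
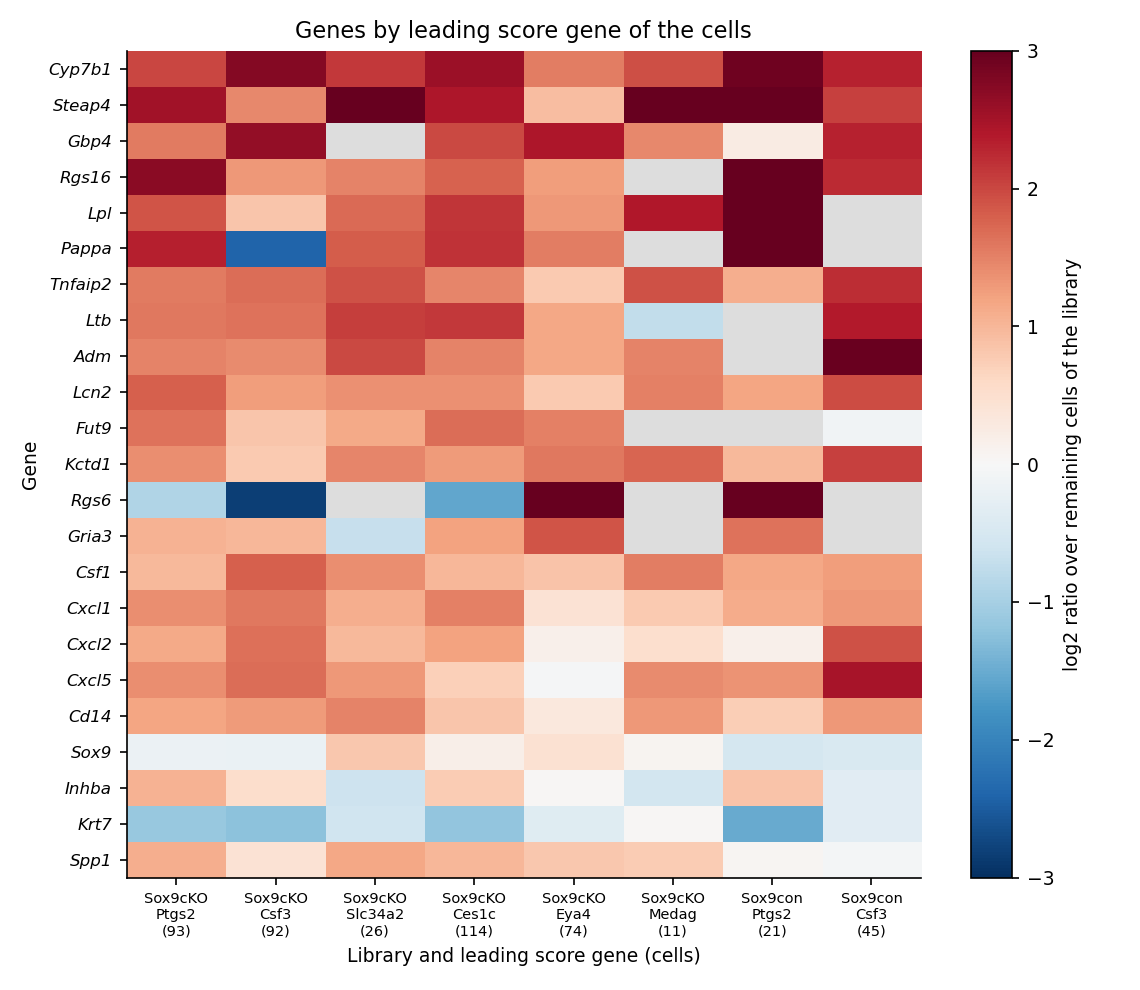
Log2 ratio over the remaining cells of the same library (colour, limited to -3 and 3) of named genes in score-positive cells split by the score gene with the most UMIs, with cell numbers under each column. Grey marks groups with too few counts for a ratio. Cyp7b1 is above 0 in every column, while Cxcl2 is at 0.15 in Eya4-led Sox9cKO cells.

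The population was set beside 3 others chosen by the same rule with other genes. It shared 105 cells with the Ly6a, Cd14 and Cxcl5 cells, 19.6% of score-positive cells and 16.9% of those 622. The shared cells were 70 of 171 such cells of the Sox9cKO library (40.9%) and 35 of 451 of the Sox9con library (7.76%). They made up 15.7% of score-positive Sox9cKO cells and 39.3% of score-positive Sox9con cells. Of kept cells, 6.30% and 12.9% belonged to the Ly6a, Cd14 and Cxcl5 cells, and 10% over both libraries. Cd14, the lipopolysaccharide co-receptor, stood at 527 against 254 CPM and at 833 against 419 CPM over all score-positive cells. It shared 25 cells with the Car4, Msln and Tff2 cells (4.66%, and 5.01% of those 499) and 17 with the Ltf, Muc4 and Anxa10 cells (3.17%, and 5% of those 340). Of all kept cells 8.62% were score-positive, and 16.5% and 2.54% by library.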

How the data were processed

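Biliary epithelial cells of 1 Sox9cKO-labelled and 1 Sox9con-labelled library were profiled. The cells were fixed and barcoded by splitting and pooling (Evercode, Parse Biosciences), per the labels' protocols. The values are whole-number counts of transcripts in each cell for each gene, as deposited by the authors, with an added EGFP sequence, which had 2 and 0 UMIs in score-positive cells. The submitters' processing notes name GRCm39; the aligner is not given in the sources used here.

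UMIs were summed per library and cell class with Python 3.11.15, pandas 2.3.3, numpy 2.4.6 and scipy 1.17.1 and scaled to CPM by total UMIs. Shares have exact binomial, levels exact Poisson and ratios exact conditional binomial intervals. A sum of 0 was set to a floor of 3 counts, and no ratio was given with both sums at or under it. With 1 library per genotype no test and no p-value was made. No doublet caller was run, and an alternative left out the 5% deepest cells of each library. Factors of edgeR 4.0.16 and DESeq2 1.42.0 (R 4.3.3) served as other scalings only. Scripts were tested on simulated data.

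Named genes were the 15 highest and 15 lowest by the weaker of the libraries' ratios, the 10 highest and 10 lowest between libraries, the extremes of each list, and Sox9, Inhba, Krt7 and Spp1. Mitochondrial, ribosomal RNA, sex-linked and unnamed genes were left out of the ranking. Other genes given as examples were chosen after their values were seen. Members, lists and rules were chosen with earlier results of these data known. Ratios, calls and medians of the 17 gene lists and 10 marker lists used their genes measured with at least 50 UMIs. Genes whose symbol is carried by several identifiers were left out of the lists. Marker UMIs per cell and summed marker levels used every listed marker.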

Additional observations from a re-analysis of the deposited data

Results flagged for a closer look

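Results are listed where the ratio of score-positive to remaining cells went one way in the Sox9cKO library and the other way in the Sox9con library. The difference between libraries was not tested, since each is 1 library. Rhoj had log2 ratios of -1.03 and 0.63, and the latter came to -0.18 without the cells of other signs. Ly6a had -0.65 and 0.63. Tmtc2 had -1.10 and 1.19, and the latter came to -0.83 without those cells. Efna5 had -1.53 and 0.43. Nrg1 had -0.73 and 3.19, the latter with 77.4% of UMIs in 1 cell and 0.19 without those cells. The plasma protein transcripts had medians of 0.91 and -0.60, with 11 of 20 genes having a ratio in both libraries.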

How the results depend on the processing

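Score-positive cells were more frequent in the Sox9cKO library under every alternative run. Their share there, 16.5% as reported, was 9.14% with the top 5% of the score, 13.3% with at least 5 score UMIs, 14.6% without Ces1c in the score and 9.16% in thinned cells. The Sox9con share, 2.54% as reported, was 1.45% with the top 5%, 1.28% with at least 5 score UMIs, 1.97% without Ptgs2, 1.34% without Csf3 and 1.25% in thinned cells. Leaving out each well in turn gave 15.1% to 18.3% and 2.16% to 2.54%.

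The 30 genes higher in both libraries were 156 with no gene minimum and 22 to 31 with a well left out. The 109 lower in both were 55 in thinned cells, 58 with counting intervals on 1 side of 0 and 71 to 105 with a well left out (71 without D9). In thinned cells, 15 of the 30 and 16 of the 109 were among those called. Without Csf3 in the score 11 of the 30 and 44 of the 109 were. Leaving out any other score gene kept 19 to 27 of the 30 and 69 to 89 of the 109. With all cells of other cell type markers left out, 16 and 57 were kept. The 264 genes higher in Sox9cKO score-positive cells were 78 in thinned cells, 502 with a gene minimum of 50 UMIs, 937 with none and 205 to 372 with a well left out. The 137 lower were 89 with the top 5%, 28 in thinned cells, 317 with a minimum of 50 UMIs, 1429 with none and 88 to 246 with a well left out.

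Single values turned on few UMIs. In the Sox9con library Fut9 came to -0.28 with the top 5% of the score, -1.095 without Slc34a2 in it, and from -0.13 (without well D9) to 1.96 with a well left out. Without Csf3 in the score, Ltb came to -1.41, Pcsk6 to 0.34 and Selp to -0.42. Without Eya4, Rgs6 came to -3.27 in the Sox9cKO library and Gria3 to -0.32 in the Sox9con library. In thinned cells Rbp4 came to 1.1, Slc34a2 in cells chosen by the other genes to -0.20, and Selp between libraries to 0.11. With all cells of other cell type markers left out, Lpl came to -1.12, Pappa to -0.10 and Tmtc2 to -0.90 in the Sox9con library, Ehd3 to 0.27 in the Sox9cKO library, and Adamts4 to 0.79 and Nrg1 to 0.69 between libraries. With only collagen, endothelial and low-biliary cells left out, Lpl came to -0.16, Tmtc2 to -0.83, Ehd3 to 0.080, Adamts4 to 1.02 and Nrg1 to 0.65. With a well left out, Lpl ran from -0.48 (without D12) to 3.797 in the Sox9con library and Adamts4 between libraries from -3.18 to 0.85 (without D12). The causes were not tested. The last cell filter, the removal of the 5% deepest cells and the interval rule were chosen after seeing the data. The counts of genes higher and lower in both libraries were 33 and 107 with TMM and 36 and 106 with DESeq2 size factors. No paired analysis was possible because the labels give no replicate numbers and each genotype is 1 library.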
